A study of Homo sapiens with 6 samples.

Results

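The plasminogen activator system was examined in CAL62 cells, an established anaplastic thyroid carcinoma (ATC) line, through 5 genes: the activators PLAU and PLAT, the receptor PLAUR, and the inhibitors SERPINE2 and SERPINB2. They were picked by symbol, with earlier results of these data known. Each was found on 1 row of the deposited tables, 5 of 39168 Ensembl identifiers in all. The cells, labelled wild type, were treated for 48 h with 50 nM erianin, a small molecule from the medicinal plant Dendrobium, or for the same time with the solvent DMSO, and 3 libraries of total RNA were sequenced from each group. The comparison asks how these genes responded to erianin in a line of a single tumour, and no other line was sequenced. Nothing in the labels says that replicates were separate cultures, so p-values measure the spread between these libraries, which may be technical. Of the thyroid markers, PAX8 was abundant (643 to 739 CPM with DMSO and 419 to 433 CPM with erianin), TSHR and NKX2-1 were at 0 and TG and SLC5A5 were below 1 CPM. The epithelial gene KRT8 (1182 to 1556 CPM) and the mesenchymal gene VIM (1153 to 1511 CPM with DMSO and 915 to 956 CPM with erianin) were both abundant, while the blood gene PTPRC did not exceed 0.172 CPM. The other epithelial genes ranged widely. With DMSO, KRT18 averaged 890 CPM, KRT19 479 CPM and EPCAM 18.7 CPM. CDH1, the E-cadherin gene, was near 0, at means of 0.0526 CPM with DMSO and 0.182 CPM with erianin.

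PLAU encodes urokinase (uPA) and PLAT encodes tissue plasminogen activator (tPA), secreted serine proteases that cleave the inactive precursor plasminogen to plasmin. Plasmin degrades fibrin and other matrix proteins and activates further proteases, and PLAUR, a surface receptor anchored by a lipid tail, holds urokinase at the cell edge, which has made the system a much studied part of tumour cell invasion. Serpins end the reaction by trapping the active protease: SERPINE2 (protease nexin-1) blocks thrombin, urokinase and tPA outside the cell, and SERPINB2 (plasminogen activator inhibitor type 2) blocks urokinase and is largely kept inside the cell.

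Reads counted on named genes numbered between 25776301 and 34107727 per library. DMSO replicate 3 stood apart from the other libraries of its group: the chi-square per gene between libraries, a measure of how far their counts differ beyond sampling, was 93.8 and 106 between it and the other DMSO libraries, against 4.42 between those and 3.79 to 4.77 among the erianin libraries. The same measure was lower, at 54.2 to 66, when DMSO replicate 1 or 2 was set against a treated library. By it, DMSO replicate 3 lay further from its own group than the treated libraries lay from those controls. The fold change of each of the 5 genes is therefore also given without DMSO replicate 3. A gene was called when edgeR's quasi-likelihood test gave a Benjamini-Hochberg adjusted p under 0.05 over the 12821 genes tested and the absolute log2 fold change exceeded 0.5. By that rule 8.73% of all tested genes were called, 5.37% up and 3.36% down.

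Promoter sequences are shown because the genes of this system are known targets of AP-1 and ETS transcription factors, and the members differed in the direction of their response. They cover 4 of the genes, and PLAT has no window among those described. The sequences come from RefSeq on GRCh38.p14 and run from 250 bases before an annotated start to 50 bases from it, 5′ to 3′ on the gene's own strand. The capitals mark the AP-1 letters TGANTCA, the TATA letters TATAAA and the CCAAT-box letters ATTGG, searched on both strands. These matches do not overlap each other.
PLAUR chr19:43670120-43670419, minus strand: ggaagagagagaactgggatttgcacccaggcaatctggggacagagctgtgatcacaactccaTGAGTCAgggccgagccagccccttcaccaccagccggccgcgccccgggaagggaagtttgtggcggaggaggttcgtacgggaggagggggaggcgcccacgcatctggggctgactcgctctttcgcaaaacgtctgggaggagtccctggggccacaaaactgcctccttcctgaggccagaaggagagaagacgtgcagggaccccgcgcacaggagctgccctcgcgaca
SERPINB2 chr18:63887455-63887754, plus strand: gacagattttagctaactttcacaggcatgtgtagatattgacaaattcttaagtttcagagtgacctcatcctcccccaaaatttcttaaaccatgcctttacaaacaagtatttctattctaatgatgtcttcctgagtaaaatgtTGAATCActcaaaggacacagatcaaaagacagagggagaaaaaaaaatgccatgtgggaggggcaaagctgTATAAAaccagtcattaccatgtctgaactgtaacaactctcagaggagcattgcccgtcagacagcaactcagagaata
SERPINE2 chr2:224031429-224031728, minus strand: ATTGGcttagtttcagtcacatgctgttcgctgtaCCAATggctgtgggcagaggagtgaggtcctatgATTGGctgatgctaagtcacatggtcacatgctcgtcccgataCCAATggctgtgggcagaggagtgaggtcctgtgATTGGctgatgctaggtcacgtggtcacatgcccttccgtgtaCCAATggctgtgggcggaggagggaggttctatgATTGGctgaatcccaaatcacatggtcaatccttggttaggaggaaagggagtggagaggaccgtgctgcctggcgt
PLAU chr10:73910882-73911181, plus strand: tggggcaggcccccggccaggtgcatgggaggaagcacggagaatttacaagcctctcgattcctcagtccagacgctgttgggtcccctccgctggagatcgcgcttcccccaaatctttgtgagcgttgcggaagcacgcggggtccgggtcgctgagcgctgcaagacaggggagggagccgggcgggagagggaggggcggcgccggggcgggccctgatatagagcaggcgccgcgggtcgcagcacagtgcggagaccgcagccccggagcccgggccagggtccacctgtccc

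The PLAUR window holds the AP-1 letters as TGAGTCA, 186 to 180 bases before the start, and the SERPINB2 window holds them as TGAATCA, 102 to 96 bases before it. Of 35116 promoter windows of the same length, 7.71% hold TGANTCA. SERPINB2 alone of the windows shown also carries TATAAA, 30 to 25 bases before the start, as do 11.5% of all windows. The SERPINE2 window shown has 7 matches to ATTGG, which occur in alternation on the 2 strands, and 34.6% of all windows hold at least 1. A second SERPINE2 window, chr2:224038591-224038890 (not shown), has 0 matches to ATTGG and 2 to the GC-box letters GGGCGG. Of 10 annotated SERPINE2 transcripts, 1 begins within 100 bases of the start shown and 0 within 100 bases of the other. The PLAU window shown has no capitals but 3 copies of GGGCGG, beginning 66, 51 and 40 bases before the start. The SERPINE2 window shown has 1 copy, and 45.0% of windows hold that motif. A second PLAU window, chr10:73910360-73910659 (not shown), has 1 match to ATTGG and 0 to GGGCGG. The cAMP-element letters TGACGTCA are in none of these windows and in 1.85% of all. The ETS letters AGGAAG are in the PLAU, PLAUR and SERPINB2 windows shown and in 33.6% of all. A match describes letters only and shows no binding.

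PLAT and both inhibitors rose with erianin, PLAU was lower without being called, and the receptor gene did not pass the test. PLAT, SERPINE2 and SERPINB2 were called up, 3 of the 5 genes against a background of 5.37%, and none was called down. Because the 5 genes were chosen with earlier results of these data known, such shares and medians describe them and do not test the system. PLAU was lower by less than the fold threshold, with an adjusted p under 0.05 with all 6 libraries, as had 7.69% of all tested genes in that direction, and under 8 of 17 alternatives. Without the fold threshold 4 of the 5 genes passed, against 14.9% of all tested genes (7.22% up). The CPM of the groups, counts scaled to the TMM library size, did not overlap for 4 of the 5 genes, against 38.7% of all tested genes (19.5% higher and 19.3% lower with erianin). The median log2 fold change of the 5 genes was 0.85 and that of all tested genes 0.00. The markers PAX8 (log2 fold change -0.66, edgeR adjusted p = 0.00403, called) and VIM (-0.47, 0.0300, not called) were lower in all erianin libraries. Of the markers tested, 1 thyroid gene was lower and 1 higher, and 2 epithelial genes were lower and 2 higher, with KRT8 at 0.01. The epithelial gene CDH1 had too few counts to be tested. All 4 mesenchymal genes were lower, with ZEB1 at -0.01. The part of these markers in the changes of the 5 genes was not tested. In bulk RNA, fewer cells that express a gene and less RNA per cell cannot be told apart.

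**Figure D1:**
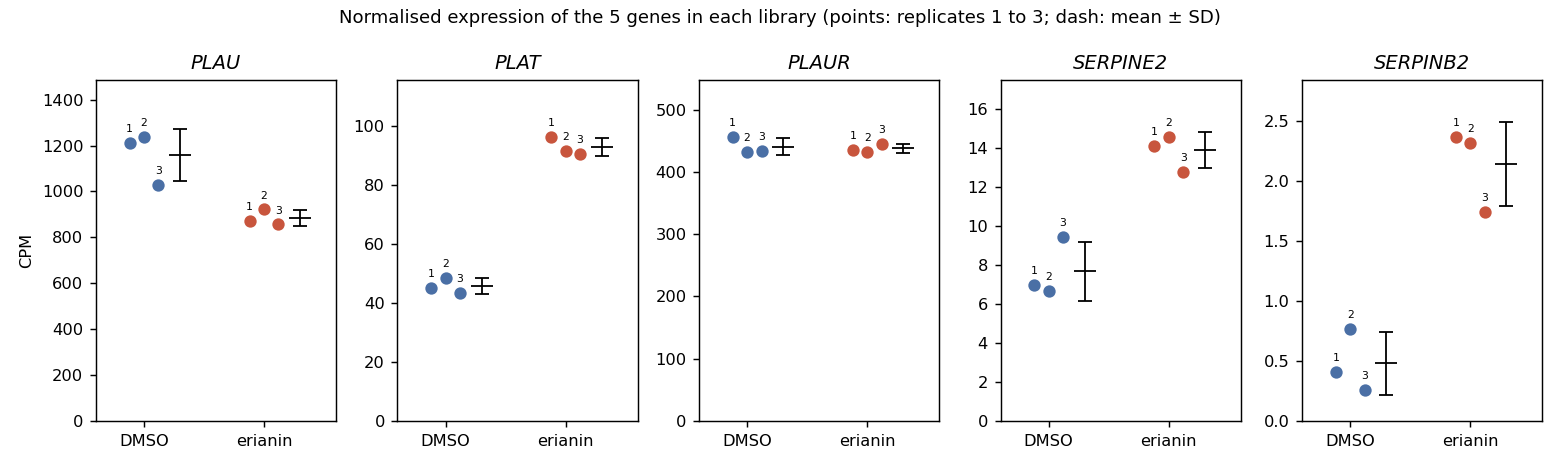
Normalised expression (CPM, each panel on its own axis from 0) of PLAU, PLAT, PLAUR, SERPINE2 and SERPINB2 in the 3 DMSO (blue) and 3 erianin (red) libraries; points are libraries numbered by replicate, and the dash and bar beside them are the mean ± SD. PLAT, SERPINE2 and SERPINB2 lie higher in every erianin library, PLAU lies lower, and the PLAUR points overlap.

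PLAU, the urokinase gene (ENSG00000122861, chromosome 10 from 73909177 to 73917497, plus strand, GRCh38), was the most abundant of the 5. DMSO libraries 1, 2 and 3 had 1211, 1239 and 1030 CPM, against 871, 922 and 856 CPM for those with erianin. All erianin libraries lay below all DMSO libraries, and DMSO replicate 3 was the lowest of its group and the closest to them. The mean went from 1160 ± 113 to 883 ± 34.6 CPM (SD, n = 3 per group). On the log2 scale this was -0.39 (SE 0.09, 95% confidence interval -0.60 to -0.18, edgeR adjusted p = 0.0275), or -23.9% with an interval of -34.2% to -12.0%. Leaving out DMSO replicate 3 gave a log2 fold change of -0.48 (interval -0.56 to -0.40, edgeR adjusted p = 8.11e-12), still under the fold threshold. That fit gave an adjusted p under 0.05 with a decrease to 27.7% of the genes it tested. Whether PLAU had an adjusted p under 0.05 depended on the scaling: on the deposited TPM values the change was -0.19, where the median of all genes was shifted by 0.18, and PLAU did not pass limma's test. The TPM of the groups overlapped, with DMSO replicate 3 at 899 TPM, below the 921 to 965 TPM of the erianin libraries. With each of the other 5 libraries left out it did not pass either, with log2 fold changes of -0.43 to -0.35 and an edgeR adjusted p of up to 0.132.

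PLAT, the tPA gene (ENSG00000104368, chromosome 8 from 42175233 to 42207724, minus strand), had the smallest adjusted p of the 5 genes. It had 45.0, 48.6 and 43.4 CPM in the DMSO libraries and 96.4, 91.6 and 90.6 CPM in the erianin libraries, from 1095 to 1576 counts and from 3174 to 3292 counts. The groups were far apart, and the DMSO library that stood apart over all genes lay beside the rest of its group here. PLAT averaged 45.7 ± 2.63 CPM with DMSO and 92.9 ± 3.09 CPM with erianin (SD, n = 3 per group), 2.03-fold more (95% interval 1.79 to 2.31) or 1.02 on the log2 scale (SE 0.08, edgeR adjusted p = 0.00102). The value was 0.98 with DMSO replicate 3 left out (edgeR adjusted p = 6.10e-16). PLAT was called under all 17 alternatives run, at log2 fold changes between 0.98 and 1.22. Among the 12821 tested genes 471 had a larger log2 fold change.

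The 2 activators are compared within a library by their TPM values, which are counts per gene length, so that the library's scaling drops out. PLAU exceeded PLAT 82.9-fold, 78.5-fold and 73.0-fold in the DMSO libraries and between 27.8-fold and 31.0-fold in the erianin libraries. The groups did not overlap, and the mean ratio was 2.67-fold smaller with erianin. As a share of the TPM of the pair, PLAT made up 1.27% ± 0.0800 (SD, n = 3) with DMSO and 3.31% ± 0.172 (SD, n = 3) with erianin. Urokinase thus remained by far the more abundant activator transcript under both treatments.

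PLAUR, the urokinase receptor gene (ENSG00000011422, chromosome 19 from 43646095 to 43670547, minus strand), did not pass the test. It had 457, 433 and 434 CPM with DMSO and 435, 433 and 445 CPM with erianin. The libraries of the groups interleave, and replicate 2 has the same rounded value in both. The means were 441 ± 13.3 and 438 ± 6.69 CPM (SD, n = 3 per group), which differ by -0.01 on the log2 scale (95% confidence interval -0.16 to 0.14, edgeR adjusted p = 0.931). In percent, the interval ran from -10.5% to 9.99%, so changes larger than this in either direction lie outside it. The interval was -0.11 to 0.06 with DMSO replicate 3 left out (edgeR adjusted p = 0.601). On TPM values the erianin libraries, at 208 to 220 TPM, all lay above the DMSO libraries, at 174 to 199 TPM. The sign thus turned to 0.19 there, close to the shift of all genes, and PLAUR did not pass under any of the 17 alternatives.

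The ratio of the urokinase transcript to that of its receptor was lower with erianin. PLAU exceeded PLAUR in TPM 5.77-fold, 6.23-fold and 5.17-fold in the DMSO libraries and 4.36-fold, 4.63-fold and 4.18-fold in the erianin libraries. It was lower in every erianin library, on average by 0.38 on the log2 scale, with DMSO replicate 3 again the nearest to them.

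SERPINE2, the protease nexin-1 gene (ENSG00000135919, chromosome 2 from 223975112 to 224039319, minus strand), was expressed at a low level. Its counts were 170, 216 and 294 with DMSO and 481, 511 and 450 with erianin, or 6.98, 6.66 and 9.44 CPM and 14.1, 14.6 and 12.8 CPM. Every erianin library lay above every DMSO library, and DMSO replicate 3 was the highest of its group. SERPINE2 averaged 7.69 ± 1.52 CPM with DMSO and 13.9 ± 0.912 CPM with erianin (SD, n = 3 per group), 1.80-fold more (95% interval 1.40 to 2.32) or 0.85 on the log2 scale (SE 0.16, edgeR adjusted p = 0.0142). With DMSO replicate 3 left out it was 1.02 (SE 0.11, edgeR adjusted p = 2.58e-09). The call was lost without DMSO replicate 1 (edgeR adjusted p = 0.0525) and without erianin replicate 1, 2 or 3 (0.0745, 0.0790 and 0.0622), at log2 fold changes of 0.78 to 0.90.

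SERPINB2, the gene of plasminogen activator inhibitor type 2 (ENSG00000197632, chromosome 18 from 63871692 to 63903890, plus strand), was the scarcest and had the largest fold change of the 5. It had 10, 25 and 8 counts with DMSO, with exact Poisson 95% intervals of 4.80 to 18.4, 16.2 to 36.9 and 3.45 to 15.8, and 81, 81 and 61 counts with erianin, with intervals of 64.3 to 101 for the first pair and 46.7 to 78.4 for the last. No interval of one group reaches those of the other; the intervals cover counting error only. Within the DMSO group replicate 2 was the highest, and replicate 3 the lowest. SERPINB2 averaged 0.479 ± 0.264 CPM with DMSO and 2.14 ± 0.349 CPM with erianin (SD, n = 3 per group), 4.39-fold more (95% interval 2.43 to 7.94) or 2.13 on the log2 scale (SE 0.37, edgeR adjusted p = 0.0114), and 81 tested genes had a larger log2 fold change. With DMSO replicate 3 left out it was 1.80 (edgeR adjusted p = 1.78e-05). On log2(TPM + 1) values, where the pseudocount is above the DMSO level of SERPINB2, limma gave 1.12 with and without the filter on low values, and SERPINB2 stayed called. The call was lost without erianin replicate 1, 2 or 3 (edgeR adjusted p = 0.0637, 0.0641 and 0.0502), at log2 fold changes of 2.05 to 2.26.

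**Figure D2:**
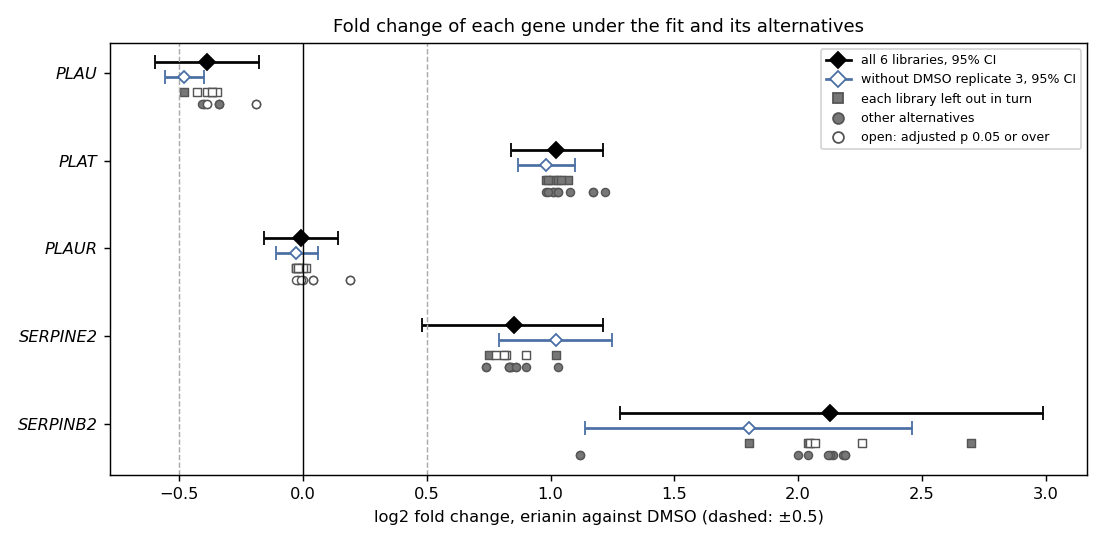
Log2 fold change of each gene, erianin against DMSO, with all 6 libraries (black diamonds) and without DMSO replicate 3 (open blue diamonds), each with its 95% confidence interval; squares leave out each library in turn and circles are the other alternatives, open where the adjusted p is 0.05 or over. PLAT, SERPINE2 and SERPINB2 stay on the right of 0 and PLAU on the left throughout, the PLAU estimates between the dashed fold threshold of -0.5 and 0, while PLAUR sits on both sides of 0.

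The inhibitors differed in how their mix moved. SERPINE2 exceeded SERPINB2 in TPM 6.69-fold, 3.40-fold and 14.5-fold in the DMSO libraries and 2.34-fold, 2.48-fold and 2.90-fold in the erianin libraries. The DMSO values were widely spread, with SERPINB2 at 8 to 25 counts there, and each was above all the erianin values. SERPINB2 made up 14.1% ± 8.18 (SD, n = 3) of the TPM of the pair with DMSO and 28.1% ± 2.24 (SD, n = 3) with erianin.

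Per gene length, the 5 genes kept 1 order under both treatments: PLAU, PLAUR, PLAT, SERPINE2, SERPINB2. With DMSO their mean TPM was 1078 ± 156 for PLAU, 188 ± 12.8 for PLAUR, 13.8 ± 1.39 for PLAT, 2.50 ± 0.357 for SERPINE2 and 0.404 ± 0.235 for SERPINB2 (SD, n = 3 each). With erianin it was 937 ± 24.5, 213 ± 6.21, 32.0 ± 1.07, 5.19 ± 0.271 and 2.04 ± 0.311 in the same order (SD, n = 3 each). No neighbours in the order overlapped in either group. The step from PLAUR to PLAT was 13.6-fold with DMSO and 6.66-fold with erianin, and that from SERPINE2 to SERPINB2 was 6.19-fold and 2.55-fold. The deposited TPM columns sum to 59.1% of their nominal total for DMSO replicate 3 and to between 72.6% and 78.3% for the others, so TPM levels between libraries carry that difference while the order within a library does not.

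**Figure D3:**
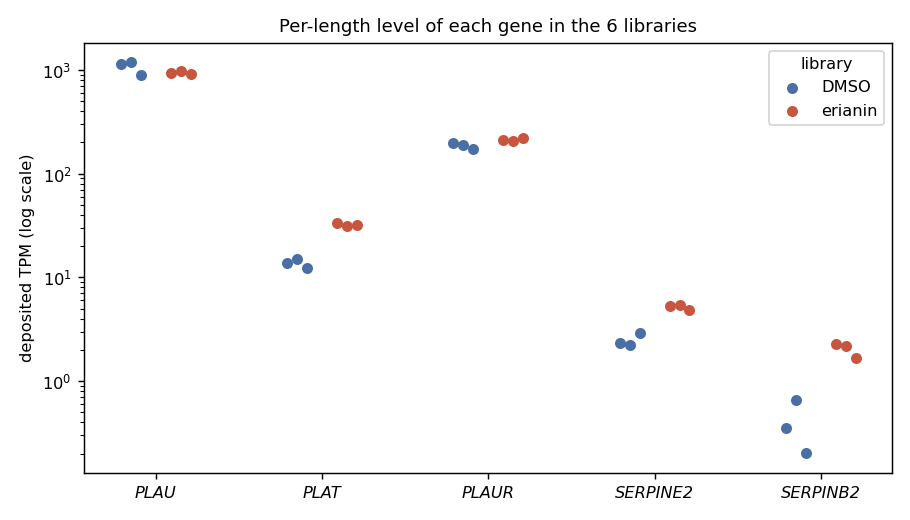
Deposited TPM (log axis) of the 5 genes in the 3 DMSO (blue) and 3 erianin (red) libraries, replicates 1 to 3 from left to right. The genes span from 0.201 TPM for SERPINB2 to 1185 TPM for PLAU, and PLAT, PLAUR, SERPINE2 and SERPINB2 are higher in each erianin library, PLAUR by about the shift that TPM gives all genes, while the PLAU points overlap.

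The other genes of the system, a list of 24 that holds plasminogen itself, its further activators, surface sites and clearance receptors, mostly did not pass the test. Of 18 tested, 1 was called up and 1 down, 11.1% against 8.73% of all tested genes, with a median log2 fold change of 0.04. ST14, which encodes matriptase, a membrane protease that can activate pro-urokinase, had 10.3, 11.5 and 7.35 CPM with DMSO and 19.6, 17.1 and 18.8 CPM with erianin, higher by 0.93 on the log2 scale (edgeR adjusted p = 0.0140). MRC2, an endocytic collagen receptor that associates with PLAUR, had 172, 174 and 148 CPM with DMSO and 102, 108 and 96.4 CPM with erianin (log2 fold change -0.69, edgeR adjusted p = 0.00489). For both genes the groups do not overlap. The plasminogen receptors ANXA2 and ENO1, among the most abundant of the list, did not pass, at log2 fold changes of 0.21 (edgeR adjusted p = 0.116) and 0.02 (0.947). Without DMSO replicate 3 they had an adjusted p under 0.05 and were not called, at 0.25 for ANXA2 and -0.14 for ENO1. PLG, the plasminogen gene, had 0 counts in all 6 libraries. When DMSO replicate 3 was left out, 3 of the list were called up and 1 down, where 17.5% of all tested genes were called (11.4% up and 6.11% down).

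Of the substrates of uPA, tPA and plasmin, 6 of 11 genes were tested and 1 was called (16.7%, against 8.73% of all tested genes), with a median log2 fold change of -0.11. It was FN1, which encodes the matrix protein fibronectin, at 5366, 5272 and 6813 CPM with DMSO and 3330, 3617 and 3112 CPM with erianin (log2 fold change -0.80, edgeR adjusted p = 0.00761). TGFB1 and BDNF, whose products are released or matured by plasmin, did not pass, at -0.05 (edgeR adjusted p = 0.647) and -0.17 (0.256). The fibrinogen gene FGA was at 0 counts throughout. In the tissue factor and thrombin pathway 6 of 12 genes were tested and 1 was called (16.7%, against 8.73% of all), with a median of 0.34. This was TFPI2, an inhibitor of plasmin and of the tissue factor complex, at 186, 185 and 202 CPM with DMSO and 371, 384 and 382 CPM with erianin (log2 fold change 0.99, edgeR adjusted p = 0.000893). THBD, the thrombin cofactor thrombomodulin, was lower by less than the fold threshold, at -0.47 (edgeR adjusted p = 0.0298), and the protein C receptor gene PROCR did not pass, at 0.14 (0.620). In the fit that left out DMSO replicate 3, 8 genes of the pathway could be tested, and 4 were called up and 1 down, where 11.4% and 6.11% of all tested genes were. The gene called down was THBD, at -0.60 (edgeR adjusted p = 1.03e-13).

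The AP-1 and ETS factors, known as regulators of PLAU and PLAUR, were all expressed: 11 of 11 were tested and 1 was called (9.09%, close to the 8.73% of all tested genes), with a median log2 fold change of 0.17. The called gene was FOSB, at 36.5, 37.0 and 40.4 CPM with DMSO and 56.0, 63.4 and 56.4 CPM with erianin (log2 fold change 0.63, edgeR adjusted p = 0.00664). Without the fold threshold 4 of the 11 were higher and 1 lower at an adjusted p under 0.05, against 7.22% and 7.69% of all tested genes. ETS1 was among the former, at 0.36 (edgeR adjusted p = 0.0304). FOSL1 and JUN, abundant members of AP-1, did not pass, at -0.21 (edgeR adjusted p = 0.303) and 0.23 (0.0976). Of 19 other serpins 7 were tested, 2 were called up and 1 down, 42.9% of those tested against 8.73% of all tested genes (5.37% up and 3.36% down), with a median of -0.15. SERPINA1, the elastase inhibitor alpha-1-antitrypsin, was higher by 0.96 (edgeR adjusted p = 0.0232) and SERPINB7 by 2.50 (0.0134), while SERPINB6, an intracellular inhibitor, was at -0.69 (0.00403). The remaining abundant serpin genes SERPINH1 and SERPINB1 did not pass, at -0.15 (edgeR adjusted p = 0.149) and -0.19 (0.288). The 8 called genes of the 5 lists were also called in the same direction with DMSO replicate 3 left out. They lay at 0.75 for ST14, -0.76 for MRC2, -0.67 for FN1 and 1.03 for TFPI2. FOSB was at 0.67, SERPINA1 at 1.22, SERPINB7 at 2.40 and SERPINB6 at -0.76. That fit called 17.5% of all tested genes, against 8.73% with all 6 libraries. FN1 was not called without erianin replicate 1 or 3, nor FOSB without erianin replicate 2. With erianin replicate 1, 2 or 3 left out, the plasminogen system had 1 call and the other serpins 1, against 2 and 3. Without DMSO replicate 1 or 2 the other serpins had 2 calls, and the other lists kept their numbers.

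**Figure D4:**
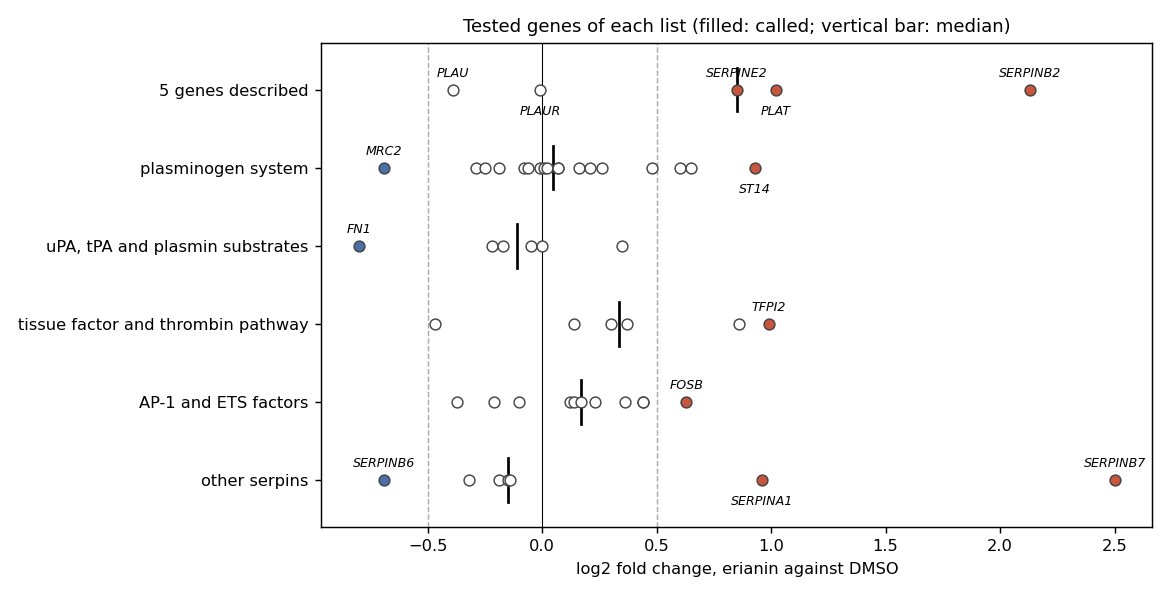
Log2 fold change, erianin against DMSO, of the tested genes among the 5 described and in each list of related genes; filled circles are called up (red) or down (blue) and are named, open circles are not called, vertical bars are medians and dashed lines mark ±0.5. The 5 genes have a median of 0.85, while the list medians run from -0.15 to 0.34.

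The genes around each member on the chromosome were compared with it, since position was not used to pick them. PLAU overlaps C10orf55 (chromosome 10 from 73909969 to 73922777), which lies on the opposite strand. C10orf55 averaged 9.17 CPM with DMSO and 4.29 CPM with erianin (log2 fold change -1.10, SE 0.22, edgeR adjusted p = 0.0174), and was the 1 called gene of 4 tested within 100 kb of PLAU. No source used here says if strand entered the counting, so reads of the overlapping pair cannot be told apart. Beside it PLAU averaged 1160 and 883 CPM. Within 100 kb of PLAUR 9 genes were tested, near PLAT 2 and near SERPINE2 2, and none of these was called. Near PLAUR, XRCC1 (-0.45, edgeR adjusted p = 0.0179) and SMG9 (-0.44, 0.0125) were lower by less than the fold threshold. Of all tested genes 7.69% were lower at an adjusted p under 0.05.

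SERPINB2 lies in a cluster of serpin genes on chromosome 18. SERPINB7, 66316 bases away on the same strand and itself an inhibitory serpin of the same clade, averaged 0.340 CPM with DMSO and 2.04 CPM with erianin (log2 fold change 2.50, SE 0.45, edgeR adjusted p = 0.0134). SERPINB8, 66035 bases away on the other side, was not called, at -0.32 (SE 0.17, edgeR adjusted p = 0.256). SERPINB10, which overlaps SERPINB2, had 0 counts in all 6 libraries. Of the 2 neighbours tested, SERPINB7 rose with SERPINB2 and SERPINB8 did not pass.

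For each member, the 3 genes with the most similar profile over the 6 libraries were found by the root mean squared difference of log2 CPM after centring each gene, among 11554 genes with a mean of at least 1 CPM. This is a description over 6 libraries of 1 comparison, and any gene with a like fold change comes close. For PLAU they were NINL, SREBF2 and IFT22, at 0.0206, 0.0264 and 0.0279. SREBF2, a regulator of sterol synthesis, went from 544 to 426 CPM. For PLAT they were NOG, GATA2 and CSF2, at 0.0508, 0.0541 and 0.0567. CSF2, the cytokine GM-CSF, rose from 46.0 to 92.6 CPM, nearly the values of PLAT itself. For PLAUR they were RNF167, MLX and STK10, at 0.0124, 0.0147 and 0.0192, genes whose log2 fold changes were between -0.03 and -0.01. For SERPINE2 they were KLHL15, MMP24 and STC1, at 0.0647, 0.0664 and 0.0688. STC1, the secreted glycoprotein stanniocalcin, went from 24.2 to 42.0 CPM. For SERPINB2 they were KRT34, FHDC1 and UCKL1-AS1, at 0.145, 0.212 and 0.254. The distances were widest for SERPINB2, which had the fewest counts.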

How the data were processed

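RNA sequencing compared CAL62 cells after 48 h with 50 nM erianin or DMSO, with 3 libraries each. The counts of reads per gene were deposited without normalization, as were TPM values, which the authors computed from the same counts. The study names the BGISEQ-500 platform and DESeq2; the submitters' processing notes list fastp 0.23.2, STAR 2.7.10, featureCounts 2.0.1, StringTie 2.2.1 and GRCh38. The annotation release and the use of strand are not given in the sources used here. Of 65807 rows, 26480 carry no identifier and hold 0.00385% to 0.00515% of the counts; these were left out. Of 39168 identifiers, 38259 matched a symbol. Positions of genes came from GENCODE release 29.

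The counts were tested with edgeR 4.0.16 in R 4.3.3 (TMM, filterByExpr by group, glmQLFit and glmQLFTest, no replicate term), with Benjamini-Hochberg adjustment over 12821 genes. The alternatives were DESeq2 1.42.0, RLE and upper-quartile factors, no filter, a minimum of 10 counts for every library, limma 3.58.1 on TPM values after log2 with a pseudocount of 1 or 0.1 (genes averaging 1 TPM or more) or of 1 without a filter, a GC offset (loess, span 0.5), the replicate number as a block, both together, each library left out, and other fold thresholds. On simulated counts edgeR recovered 200 of 200 changed genes and called 4 unchanged genes. With a GC trend added it recovered 188 and called 3896 unchanged genes, and with the GC offset 200 and 3. The simulated spread was smaller than that of these data and no simulated library stood apart, so the simulation does not cover those features. Changed genes were simulated only above a minimum of counts that SERPINB2 did not reach. Their fold changes were larger than those of PLAU, PLAUR and SERPINE2, so recovery of such genes was not simulated. The members and lists were chosen with earlier results of these data known. The genes named were the members, every called gene of each list with its 3 most abundant, the 3 most similar to each member, genes overlapping a member, and called genes within 100 kb. The thyroid and epithelial genes, VIM and PTPRC served as cell type markers. KRT18, KRT19, EPCAM, CDH1, PLG, FGA, SERPINB8, XRCC1 and SMG9 were named after their values were seen. Part of what this rule picks is not reported here. Western blots and animal experiments were not analysed here.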

Additional observations from a re-analysis of the deposited data

How the results depend on the processing

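PLAT kept its call under all 17 alternatives, and SERPINE2 and SERPINB2 kept theirs under every alternative that used all 6 libraries and could give a value; SERPINB2 had none under the minimum of 10 counts per library and was at 1.12 in both fits on log2(TPM + 1). PLAU was at -0.19 in the 3 fits on TPM and at -0.39 with the replicate block (adjusted p = 0.0587 from edgeR), past 0.05 each time. PLAUR, never called, turned to 0.04 with upper-quartile factors, 0.19 in the 3 fits on TPM, 0.04 with the GC offset, 0.04 with the replicate block and GC offset, and 0.01 without DMSO replicate 1. The median shift of all genes on TPM was 0.18, 0.20 and 0.12, and relative to it PLAUR was at 0.01, -0.01 and 0.07 and PLAU at -0.37, -0.39 and -0.31. With each library left out, log2 fold changes ran from -0.48 to -0.35 for PLAU, -0.03 to 0.01 for PLAUR, 0.98 to 1.07 for PLAT, 0.75 to 1.02 for SERPINE2 and 1.80 to 2.70 for SERPINB2. Called genes then ranged from 1 to 4 in the plasminogen system, 0 to 1 among substrates, 1 to 5 in the tissue factor pathway, 0 to 1 among AP-1 and ETS factors and 1 to 3 among other serpins, and the tissue factor pathway had 2 with upper-quartile factors. Over the whole table the 1119 calls (688 up, 431 down) ranged from 309 to 2282 (172 to 1485 up, 126 to 797 down) without 1 library. They were 1098, 1207 and 1057 up and 94, 110 and 88 down on TPM, 1912 (986 down) with no fold threshold, and 352 (324 up, 28 down) with a threshold of 1. With the replicate block they were 665 (384 up, 281 down); same-numbered libraries did not deviate together (correlations across genes 0.00138, 0.0253 and -0.0329), and with the block no other member crossed an adjusted p of 0.05. With TPM rescaled to the named rows, mean levels with DMSO and erianin were 1573 and 1220 for PLAU, 276 and 278 for PLAUR, 20.2 and 41.7 for PLAT, and 3.74 and 6.76 for SERPINE2, and 2.66 with erianin for SERPINB2. By Pearson's r in place of the distance, 1 of the 3 genes most similar to PLAU was the same (SREBF2), and 0 for each of the other members. Causes of these changes were not tested. Low counts limit SERPINB2 most.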
